A study of Mus musculus with 26 samples.

Results

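The smooth muscle contractile genes examined here were 10 genes of a table of 55391: Acta2, Myl9, Tagln, Cnn1, Tpm1, Tpm2, Actg2, Mylk, Fhl1 and Srf. All 10 were found by their symbol. Acta2, Myl9 and Fhl1 were chosen because they rose with alectinib in these same libraries, so their rise is given as a description and was not tested, whereas the other 7 were taken by function to ask whether a wider program rose with them. Their RNA was sequenced in 3 mouse lung cancer lines named EA1, EA2 and EA3, which derive from C57BL/6 animals and are driven by the EML4-ALK fusion. EA1 came from a mouse with wild-type Trp53, and EA2 and EA3 came from Trp53 null mice. Cells received 100 nM alectinib, which inhibits the ALK kinase, or 0.1% DMSO as solvent control. A single library represents each treatment of a line on day 1, 2, 3 or 5, so that 24 libraries were analysed, 4 in each of 6 groups, with 5780062 to 11732401 counts each (median 9252878). The 4 days stand in for replicates, and since nothing in the labels describes repeat cultures of a day, p-values measure only the spread between these libraries.

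A further pair of libraries carries the label EA3 day 7 and entered no test other than 1 alternative over all 26 libraries. Their log2 CPM (counts scaled to a common library total) across 14264 genes correlated with the EA2 mean at r = 0.967 (DMSO) and 0.986 (alectinib), and with the EA3 mean at 0.887 and 0.876. The other libraries correlated with the mean of their own line at 0.953 to 0.990. Etv4 and Dusp6, transcripts that depend on ERK signaling downstream of ALK, served to check the treatment labels. Both fell in all 3 lines. For EA1, EA2 and EA3 in turn, the log2 fold changes of Etv4 were -4.08, -6.59 and -4.03 and those of Dusp6 were -2.34, -5.03 and -3.28. The highest adjusted p of these 6 tests was 0.000101 (edgeR).

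Smooth muscle cells contract when myosin pulls on actin filaments, and they carry their own versions of the parts. Acta2 and Actg2 encode the smooth muscle actins, Myl9 the regulatory light chain of myosin, and Mylk the kinase that phosphorylates this light chain. Tpm1 and Tpm2 encode tropomyosins, which lie along the actin filament, while calponin (Cnn1) and transgelin (Tagln) bind actin, and Fhl1 is a LIM domain protein of muscle. Many of these genes are targets of serum response factor (Srf), a transcription factor that binds a DNA element called the CArG box and acts with partner factors: myocardin and the MRTFs at contractile and cytoskeletal genes, and the ternary complex factors (TCFs), which answer to ERK, at immediate early genes. Acta2 is also a known transcript of activated fibroblasts and of epithelial cells in mesenchymal transition.

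RefSeq promoters on GRCm38.p6, from 250 bases before to 50 bases after the annotated start, were at hand for 8 of the 10 genes, and Fhl1 had a second window without a match. The 5 below are shown because 4 of them hold a CArG box or a near match, and because Cnn1, which rose with alectinib, holds none. Capitals mark the CArG box (CC, a run of A or T, then GG) and matches in which 1 base of that run is C or G, read 5′ to 3′ on the strand of the gene.
Acta2, chr19:34255324-34255623, minus strand: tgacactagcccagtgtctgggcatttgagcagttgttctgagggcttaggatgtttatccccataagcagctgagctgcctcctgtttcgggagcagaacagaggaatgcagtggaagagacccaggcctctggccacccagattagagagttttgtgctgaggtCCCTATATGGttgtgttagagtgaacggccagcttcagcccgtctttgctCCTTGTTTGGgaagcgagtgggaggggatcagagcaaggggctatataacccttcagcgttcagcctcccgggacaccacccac
Myl9, chr2:156775214-156775513, plus strand: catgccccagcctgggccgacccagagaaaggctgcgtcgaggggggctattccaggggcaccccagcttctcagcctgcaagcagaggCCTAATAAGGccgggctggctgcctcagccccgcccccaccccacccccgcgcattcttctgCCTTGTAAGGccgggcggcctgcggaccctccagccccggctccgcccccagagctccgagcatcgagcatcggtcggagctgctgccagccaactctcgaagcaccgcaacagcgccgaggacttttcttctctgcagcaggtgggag
Fhl1, chrX:56779433-56779732, plus strand: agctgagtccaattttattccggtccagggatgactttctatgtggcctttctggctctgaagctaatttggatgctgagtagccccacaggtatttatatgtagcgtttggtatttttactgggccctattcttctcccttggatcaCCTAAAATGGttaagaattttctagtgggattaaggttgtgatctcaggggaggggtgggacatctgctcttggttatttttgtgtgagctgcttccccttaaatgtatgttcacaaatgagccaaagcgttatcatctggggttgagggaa
Srf, chr17:46556113-46556412, minus strand: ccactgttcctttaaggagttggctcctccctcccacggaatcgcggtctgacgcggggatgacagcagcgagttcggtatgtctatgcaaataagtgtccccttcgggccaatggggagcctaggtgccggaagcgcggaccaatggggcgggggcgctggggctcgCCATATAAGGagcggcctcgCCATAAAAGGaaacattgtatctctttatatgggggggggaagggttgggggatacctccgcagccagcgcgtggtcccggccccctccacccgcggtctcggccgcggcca
Cnn1, chr9:22099003-22099302, plus strand: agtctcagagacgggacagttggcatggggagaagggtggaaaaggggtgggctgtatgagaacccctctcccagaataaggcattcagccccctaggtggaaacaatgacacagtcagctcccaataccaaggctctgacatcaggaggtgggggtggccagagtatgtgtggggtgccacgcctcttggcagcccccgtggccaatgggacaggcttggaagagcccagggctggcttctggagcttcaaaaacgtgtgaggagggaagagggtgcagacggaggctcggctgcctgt
The CArG box was found in the windows of 3 of these 8 genes. It began at -161 from the start in Myl9 and at -102 in Fhl1, and Srf held one at -82 and another at -62. Acta2 held no exact match but had matches with 1 substitution at -84 and -34, and Myl9 had one at -99. Over 32851 RefSeq promoters of the same length, 1.63% held the exact element and 8.5% the element with 1 substitution. The MCAT element (CATTCC on either strand), a site for TEAD factors, was found in Acta2, Tpm1 and Mylk, and in 14.7% of all promoters. Tpm2 and Cnn1 held none of these letters in this window.

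Acta2 was low in DMSO, with a single count over the 4 EA3 libraries, and was higher with alectinib in every line and on every day. In EA1, the DMSO libraries of days 1, 2, 3 and 5 held 42, 51, 10 and 18 counts of Acta2 and the alectinib libraries held 4792, 4609, 4542 and 8208. In EA2, the counts were 28, 14, 7 and 8 in DMSO and 489, 2121, 1101 and 11566 with alectinib. In EA3, 1 count was found over all 4 DMSO libraries, against 25, 87, 151 and 253 with alectinib. The DMSO and alectinib libraries therefore did not overlap in any line, and the alectinib level in EA1 was already high on day 1, whereas in EA3 each later day held more counts than the one before. Mean levels went from 3.37 ± 2.06 to 546 ± 105 CPM (SD, n = 4) for EA1, which is 162-fold. For EA2 they went from 1.49 ± 0.94 to 462 ± 576 CPM, which is 309-fold. The EA2 mean rested on day 5, without which it was 182 ± 171 CPM (n = 3) and the fold was 103. In EA3 the level with alectinib was 13.3 ± 10.6 CPM, and the ratio of summed counts was 432 (95% exact interval 77.2 to 17093, counting error only).

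Myl9 followed the same direction at lower levels. The counts in EA1 were 5, 3, 0 and 5 in DMSO and 588, 371, 336 and 692 with alectinib. In EA2 they were 1, 3, 0 and 0 against 11, 22, 6 and 127, and in EA3 they were 0, 0, 1 and 0 against 62, 79, 259 and 147. No alectinib library fell to the level of a DMSO library of its line, and the EA2 rise was small before day 5. The mean level with alectinib was 48.7 ± 10.9 CPM in EA1, 130-fold over DMSO, and 4.98 ± 6.36 CPM in EA2, 37.2-fold, or 10.6-fold without day 5. In EA3 it was 13.7 ± 8.33 CPM, a ratio of summed counts of 458 (95% exact interval 81.8 to 18118). The fitted log2 fold change in EA2 was 5.16, and it was 3.42 without day 5 and 6.79 without day 2.

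Fhl1 was the only gene of the 3 chosen on their rise with more DMSO counts in EA3 than in EA1. Its DMSO counts were 8, 6, 1 and 7 in EA1. The alectinib libraries of this line held 177, 143, 190 and 489. For EA2 the counts were 1, 0, 0 and 0 in DMSO and 15, 54, 33 and 653 with alectinib, and for EA3 they were 5, 9, 18 and 9 against 51, 147, 368 and 208. The groups did not overlap in any line. Mean levels with alectinib were 23.8 ± 11.5 CPM for EA1, 22.0 ± 34.4 for EA2 and 19.5 ± 12.5 for EA3. The EA2 mean was set by day 5 (73.4 CPM), and the other EA2 libraries, at 1.48, 9.54 and 3.72 CPM, lay below the lowest EA1 library (17.1 CPM). They were 37.8-fold over DMSO in EA1 and 14.5-fold in EA3. In EA2 the ratio of summed counts was 889 (95% exact interval 159 to 35168), and without day 5 the alectinib mean was 4.92 ± 4.16 CPM (n = 3). The values of each library are plotted on a log axis by day.

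**Figure D1:**
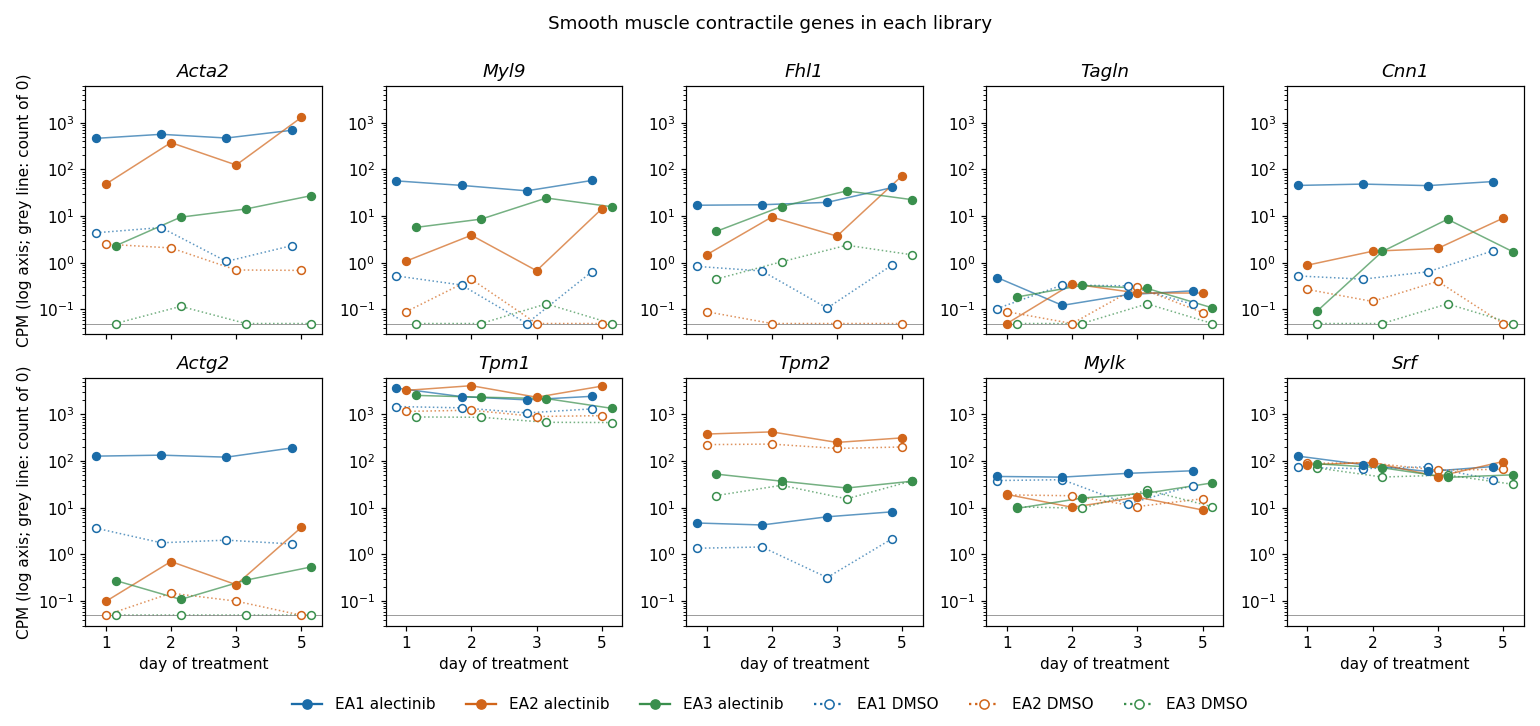
Level of each gene in each library, in CPM on a log axis (vertical), by day of treatment (horizontal), with 1 point per library. Filled points are alectinib and open points DMSO, colors are the lines, and counts of 0 are drawn on the grey line: Acta2, Myl9 and Fhl1 with alectinib lie above DMSO on every day, and the treatments overlap for Srf and Mylk in EA2 and EA3.

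Markers of other cell types were followed beside these results. The summed level of 8 fibroblast markers in EA1 was 2.14 to 7.46 CPM in DMSO and 58.3 to 328 CPM with alectinib. It was 58.5 to 71.5 and 121.6 to 239.6 CPM in EA2, and 10.2 to 20.2 and 84.9 to 279.6 CPM in EA3. Of the 5 tested, 4, 3 and 4 were higher (19%, 13% and 17.5% of all genes were), among them Col1A1 and Col3A1 in every line, while Lum and Postn were at 0 in EA2. The sum of 7 smooth muscle and pericyte markers in EA1 was 36.8 to 151 CPM in DMSO and 276 to 994 CPM with alectinib. It was 0.63 to 2.61 and 0.88 to 7.33 CPM in EA2, and 4.40 to 29.0 and 9.60 to 38.1 CPM in EA3, and 3, 0 and 1 of the 5 tested were higher. Myocd was at 0 in every alectinib library, Des was at 0 in the EA2 alectinib libraries, and the EA1 sum was mostly Rgs5, which went from 54.8 to 591 CPM. The 7 epithelial markers summed to 4677 to 9311 CPM in DMSO and 3284 to 5421 CPM with alectinib in EA1. The sums were 1811 to 2695 and 568 to 1171 CPM in EA2, and 5340 to 7866 and 3596 to 8527 CPM in EA3. The sums were led by keratins, and the 7 markers did not move 1 way: 1, 2 and 1 were higher and 1, 2 and 1 lower in EA1, EA2 and EA3, where 14.6%, 11.3% and 15.1% of all genes were lower. In EA2, Krt18 and Krt8 fell (-1.79 ± 0.33 and -2.61 ± 0.39) while Cdh1 and Krt7 rose (1.55 ± 0.20 and 3.30 ± 0.55). The 6 leukocyte and endothelial markers summed to 5.13 to 101 CPM over all groups. The part of these markers in the rise of the contractile genes was not tested, and in bulk RNA more cells of a kind and more RNA per cell cannot be told apart.

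Of the 7 genes taken by function, Tpm1 rose in all 3 lines, Cnn1, Actg2 and Tpm2 rose in EA1, Cnn1 and Actg2 also passed in EA2 and EA3 at low counts, and Mylk and Srf did not pass the test in any line. Within each line alectinib was compared with DMSO by edgeR's quasi-likelihood test, with line and day as a block and p-values adjusted over all 14264 genes, and a gene was called at an adjusted p below 0.05. Among the 6 genes with enough counts to be tested, 4 were higher in EA1, 3 in EA2 and 3 in EA3. The filter on low counts was set over all lines: within EA2 or EA3 alone, Cnn1 and Actg2 would not have passed it, and of the 4 genes that would, 1 (Tpm1) was higher in each. Over all genes tested, 19% were higher in EA1, 13% in EA2 and 17.5% in EA3. None of the 6 was lower, also at an unadjusted p below 0.05 (0 in each line) and with DESeq2 (0 in each line), beside 14.6%, 11.3% and 15.1% of all genes. The median log2 fold changes of the 6, for EA1, EA2 and EA3 in turn, were 1.58, 1.18 and 1.03, against 0.0649, 0 and 0.0668 over all genes. In EA2 and EA3 these medians include Cnn1 and Actg2, which entered through EA1. The 4 genes that pass within the line (Tpm1, Tpm2, Srf and Mylk) had 1.68, 0.67, 0.01 and -0.22 in EA2. In EA3 they had 1.42, 0.64, 0.36 and 0.51. The group was uneven, since some members rose from near 0 and others changed little or did not pass the test.

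Actg2, the enteric smooth muscle actin, was mostly a gene of EA1. Its EA1 counts were 35, 16, 19 and 13 in DMSO and 1325, 1096, 1174 and 2282 with alectinib, and the fitted log2 fold change was 5.97 ± 0.38 (SE, adjusted p = 4.99e-06, edgeR). In EA2 the alectinib counts were 1, 4, 2 and 34 and the DMSO counts 0, 1, 1 and 0, so that the groups overlapped. Actg2 reached the test only through the counts of EA1 and was not tested with EA2 or EA3 fitted alone. In the joint fit the EA2 difference passed (adjusted p = 0.00581, edgeR) and rested on day 5, without which the adjusted p was 0.163. In EA3 the DMSO libraries held 0 counts and the alectinib libraries 3, 1, 3 and 5, which is at least 3.35-fold higher against a floor of 3 counts over the group. This passed narrowly (adjusted p = 0.0352, edgeR) and did not without the day block (adjusted p = 0.0775) or without day 1, 2 or 3 (adjusted p of 0.0798 to 0.0803).

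Cnn1, calponin 1, rose strongly in EA1, and its calls in EA2 and EA3 come from the joint fit, since it had too few counts to be tested in either line alone. The EA1 counts were 5, 4, 6 and 14 in DMSO and 470, 396, 434 and 656 with alectinib, a steady level of 48.4 ± 4.63 CPM (log2 fold change 5.94 ± 0.55, adjusted p = 9.32e-06, edgeR). In EA2 they were 3, 1, 4 and 0 against 9, 10, 18 and 80, and the log2 fold change was 3.66 ± 0.70 (adjusted p = 0.00194, edgeR), or 2.35 without day 5 (adjusted p = 0.00302). In EA3 a single DMSO count stood against 1, 16, 91 and 16 with alectinib, a ratio of summed counts of 104 (95% exact interval 18.3 to 4132, adjusted p = 0.00071, edgeR). The day 1 alectinib library of EA3 overlapped with DMSO, and the other 3 did not.

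Tpm1 had the highest level per kilobase of all members in every line. It held 4071 to 14103 counts in the DMSO libraries and 12501 to 37993 with alectinib, and no alectinib library overlapped with the DMSO libraries of its line. Its mean level rose in EA1 from 1313 ± 170 to 2642 ± 705 CPM (SD, n = 4). The EA2 mean went from 1059 ± 161 to 3442 ± 831 CPM, and the EA3 mean from 775 ± 117 to 2108 ± 526 CPM. The log2 fold changes were 0.98 ± 0.16, 1.68 ± 0.16 and 1.42 ± 0.16 (adjusted p = 0.000518, 1.45e-05 and 4.63e-05, edgeR), far smaller than those of the genes near 0 in DMSO. Tpm1 is also used in cells other than muscle, and the table does not separate its isoforms.

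Tpm2 rose in EA1, where it was lowest. Its counts in EA1 were 13, 13, 3 and 17 in DMSO and 49, 35, 62 and 98 with alectinib, and the fitted change was 2.18 ± 0.35 on the log2 scale (adjusted p = 0.000551, edgeR). In EA2, with 1558 to 2521 counts in DMSO and 2229 to 3846 with alectinib, the log2 fold change was 0.67 ± 0.25 (adjusted p = 0.0683, edgeR), and the level was higher with alectinib on 4 of 4 days. In EA3 the DMSO libraries held 18.3, 30.3, 15.6 and 37.7 CPM and the alectinib libraries 52.7, 37.2, 26.5 and 37.1 CPM, so that the groups overlapped. The EA3 log2 fold change was 0.64 ± 0.26 (adjusted p = 0.0816, edgeR), with 3 of 4 days higher. The EA2 difference was called by DESeq2 (adjusted p = 0.0462) and by edgeR with the line fitted alone (0.00653) or without a filter on low counts (0.00727). The EA3 difference was called by edgeR with library size alone (adjusted p = 0.0443), without a filter (0.0274) or with all 26 libraries (0.0347). On leaving out a day neither passed, with adjusted p-values of 0.0560 to 0.205 in EA2 and 0.0657 to 0.404 in EA3 (edgeR), where the change was 0.34 without day 1.

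The kinase and the transcription factor did not pass. Mylk had log2 fold changes of 0.90 (95% interval 0.12 to 1.69) for EA1, -0.22 (-1.02 to 0.58) for EA2 and 0.51 (-0.30 to 1.31) for EA3. The adjusted p-values were 0.0706, 0.712 and 0.321 (edgeR). In EA1 all 4 alectinib libraries, at 371 to 742 counts, lay above the DMSO libraries at 113 to 367 counts once scaled, and DESeq2 called the gene there (adjusted p = 0.0410). Without day 3 the EA1 value was 0.47 (adjusted p = 0.330, edgeR). Srf had log2 fold changes of 0.42 (95% interval -0.04 to 0.89), 0.01 (-0.45 to 0.47) and 0.36 (-0.10 to 0.83) for the lines in the same order. The adjusted p-values were 0.147, 0.991 and 0.219 (edgeR). In EA1 the value was 0.64 without day 3 (adjusted p = 0.0353) and 0.21 without day 5 (adjusted p = 0.527). Its mean level lay between 49.8 and 77.9 CPM in DMSO and between 63.8 and 87.3 CPM with alectinib.

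Tagln, usually among the most abundant smooth muscle transcripts, could be read only in part. It held 0 to 5 counts in each of the 24 libraries, alectinib included, and was not tested. Of its 1988 exon bases (mm10 chr9:45929619-45936058, minus strand), 67.9% lie under exons of Pcsk7 and Gm48529 on the other strand. In this table, none of 458 genes whose exons lie wholly under an exon on the other strand had a single count in any library, whereas 57.2% of 43582 genes free of overlap did, and among protein-coding genes the shares were 0 of 35 and 80.4% of 15434. Reads in such stretches are therefore in neither gene's counts, so that the low counts of Tagln speak for its remaining 639 bases only. Of the other 9 genes, Mylk had 6.85% of its exon bases under an opposite exon and the rest had none.

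**Figure D2:**
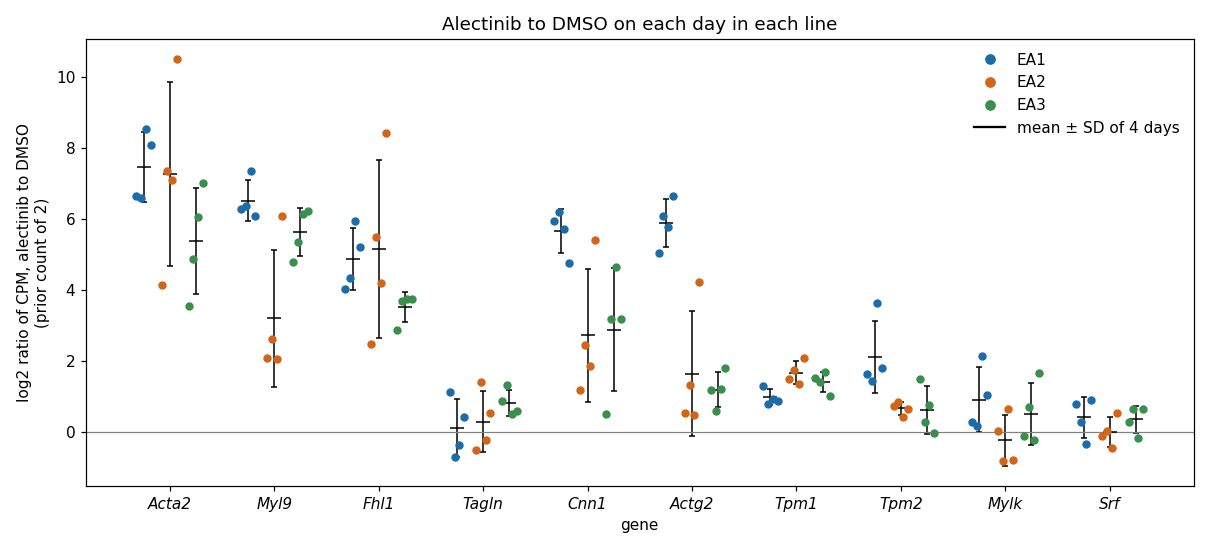
Log2 ratio of CPM, alectinib to DMSO with a prior count of 2 (vertical), for each gene (horizontal), with 1 point per day and line, and bars for the mean ± SD of 4 days. Acta2, Myl9, Fhl1, Cnn1 and Actg2 lie above 0 on every day, Tpm1 lies above 0 in a narrow band, and Tagln, Mylk and Srf scatter on both sides of 0.

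The size of the alectinib effect was then compared between lines in 1 test with 2 degrees of freedom. None of the 6 tested genes passed it in edgeR, against 6.84% of all genes, 2 of them had an unadjusted p below 0.05, and DESeq2 called those same 2, Tpm2 and Tpm1. The adjusted p was 0.0732 for Tpm2 and 0.136 for Tpm1 in edgeR, and 0.00748 and 0.0446 in DESeq2. Without day 5, Cnn1 was the only one called in edgeR (adjusted p = 0.0180). Actg2 and Cnn1 had too few counts to be tested in EA2 or EA3 alone. That they did not pass over all 4 days therefore does not show a like effect in the 3 lines. For the 3 genes chosen on their rise the comparison was not made.

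The effect was also fitted against the log2 of the day. None of the 6 genes passed in any line in edgeR, as for 0.021%, 0% and 0.0491% of all genes in EA1, EA2 and EA3, and DESeq2 called none either. Cnn1 in EA2 had the only unadjusted p below 0.05, with the effect growing by 1.92 ± 0.71 log2 units per doubling of the day (adjusted p = 0.723, edgeR). In EA3 the counts of Cnn1 and Actg2 were too few to set a slope. The large counts of Acta2, Myl9, Fhl1, Cnn1 and Actg2 on day 5 in EA2 come from 1 library. The alectinib library labelled EA3 day 7, which resembled EA2, held 1126 CPM of Acta2, against 1299.9 CPM on day 5 in EA2. It held 20.8 CPM of Myl9 (14.3 on day 5), 44.3 of Fhl1 (73.4), 9.24 of Cnn1 (8.99) and 4.24 of Actg2 (3.82).

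In DMSO the lines differed in which of these genes they held. Levels were compared in the 12 DMSO libraries with the day as a block over 12886 genes. Acta2, Myl9 and Fhl1 were chosen by a ratio in which these libraries are the denominator, so their DMSO levels are given with no test. Of the other 7, Tagln and Cnn1 had too few counts, which left 5. EA2 differed from EA1 for 2 of the 5, EA3 from EA1 for 3 and EA3 from EA2 for 3, while 40.8%, 32.6% and 36.5% of all genes differed, so that differences between these lines are common. The calls of EA2 against EA1 were Tpm2 and Actg2, and those of EA3 against EA1 were these and Tpm1. Within the DMSO libraries of a single line, Actg2 passed the filter on low counts only in EA1, and Tpm2 only in EA2 and EA3. Both thus entered through lines where they were high. The mean level of Tpm2 was lowest in EA1 at 1.33 ± 0.77 CPM, followed by EA3 at 25.5 ± 10.4 and EA2 at 211 ± 21.0. The log2 differences were 7.38 ± 0.34 for EA2 over EA1, 4.26 ± 0.32 for EA3 over EA1 and -3.11 ± 0.26 for EA3 against EA2 (adjusted p = 1.39e-08, 1.50e-06 and 2.59e-06, edgeR). Each neighbor in the order EA1, EA3, EA2 therefore differed beyond the spread. In EA1 the DMSO libraries held only 3 to 17 counts of Tpm2, which reached the tests against EA1 through the other lines.

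Both smooth muscle actins had their highest DMSO level in EA1, where Tpm2 was lowest. Acta2 averaged 3.37 CPM there, against 1.49 in EA2 and 0.03 in EA3. Actg2 was higher in EA1, at 13 to 35 counts, than in EA2, at 0 or 1 count (adjusted p = 0.000657, edgeR), and EA3, at 0 (adjusted p = 0.000565). The fitted log2 differences from EA1 were -5.15 for EA2 and -7.45 for EA3, which depend on the prior count at such levels, and Actg2 reached this test only through EA1. Between EA2 and EA3 it did not pass (adjusted p = 0.265). Tpm1 in EA3 differed from EA1 by -0.76 ± 0.14 on the log2 scale (adjusted p = 0.0017, edgeR). Against EA2, Tpm1 in EA3 differed by -0.41 ± 0.14 (adjusted p = 0.0412) and Srf by -0.65 ± 0.19 (adjusted p = 0.0160), and both calls were lost without the day block (adjusted p = 0.128 and 0.116). That of Tpm1 was also lost without any 1 day (0.0605 to 0.134), and that of Srf without day 2 (0.0889) or 5 (0.0986). The level over days in DMSO passed for none of these 5 genes in any line in edgeR or in DESeq2, beside 1.83%, 0% and 6.1% of all genes in EA1, EA2 and EA3. The only unadjusted p below 0.05 was that of Srf in EA3, which changed by -0.45 ± 0.17 log2 units per doubling of the day (adjusted p = 0.140, edgeR).

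Per kilobase of exon, so that genes can be compared, the alectinib levels of the members other than Srf and Mylk ranked differently in the lines. In EA1, Tpm1 led at 407 ± 109 CPM per kilobase, followed by Acta2 at 249 ± 47.9, Actg2 at 92.3 ± 20.6, Myl9 at 41.9 ± 9.36, Cnn1 at 17.7 ± 1.69 and Fhl1 at 6.41 ± 3.10. In EA2, Tpm1 at 531 ± 128 was followed by Acta2 at 210 ± 262 and Tpm2 at 118 ± 25.8. Without day 5 the order turned, with Acta2 at 83.1 ± 77.8 and Tpm2 at 121 ± 30.7 (n = 3). Fhl1, Myl9, Cnn1 and Actg2 lay lower, at 5.93 ± 9.26, 4.29 ± 5.47, 1.25 ± 1.37 and 0.78 ± 1.13 over all 4 days and at 1.32 ± 1.12, 1.62 ± 1.5, 0.57 ± 0.22 and 0.22 ± 0.21 without day 5. In EA3, Tpm1 at 325 ± 81.2 was followed by Tpm2 at 13.2 ± 3.70, Myl9 at 11.8 ± 7.17 and Acta2 at 6.08 ± 4.81, neighbors whose SDs overlap. Srf lay between 22.1 and 30.2 and Mylk between 1.23 and 4.64 in the 3 lines. Actg2, Cnn1 and Myl9 were thus highest in EA1, and Tpm2 in EA2.

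Other smooth muscle genes moved in part. This list and those that follow were chosen with earlier results of these data known, so their counts are not independent of the choice. Of a list of 17 further genes, 11 were tested, and 6 were higher in EA1, 4 in EA2 and 4 in EA3, beside 19%, 13% and 17.5% of all genes, while 1 was lower in EA3. The median log2 fold change of the list was 1.08, 1.07 and 0.705. Cald1, Csrp1, Synpo2 and Ppp1R12B were higher in all 3 lines. Cald1, which encodes the actin-binding caldesmon, rose by 1.08 ± 0.25, 1.51 ± 0.25 and 1.70 ± 0.25 on the log2 scale (EA1, EA2, EA3), and the LIM protein gene Csrp1 by 1.64 ± 0.27, 1.54 ± 0.27 and 2.17 ± 0.28. Synpo2, an actin-binding protein of muscle, rose by 3.77 ± 0.70, 3.09 ± 0.54 and 3.83 ± 0.71 from levels below 1 CPM. Myh11, the smooth muscle myosin heavy chain and the most specific marker of the list, rose in EA1 from 0.12 to 5.66 CPM (log2 fold change 5.60 ± 0.84, adjusted p = 0.000414, edgeR). It was at 0.13 and 0.64 CPM in EA2 (adjusted p = 0.133) and at 0.15 and 0.18 CPM in EA3 (adjusted p = 0.979). Lmod1, leiomodin 1, did likewise, from 0.13 to 11.0 CPM in EA1 (adjusted p = 0.000119, edgeR), with adjusted p of 0.310 in EA2 and 0.336 in EA3. Both genes had few counts outside EA1. A library held at most 10 of Myh11 in EA2 and 5 in EA3, and at most 38 and 7 of Lmod1. The tests in EA2 and EA3 therefore cannot show that these genes were unchanged there. Smtn, smoothelin, was the gene that fell in EA3 (-1.73 ± 0.45, adjusted p = 0.0107, edgeR). It had -0.97 ± 0.42 in EA1 and -0.87 ± 0.42 in EA2 (adjusted p = 0.0913 and 0.15), with lower levels on 4 of 4 days in each line. In edgeR with the line fitted alone, 0 genes of the list were lower in EA3, and 1 was lower in EA1 and 1 in EA2.

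Among the partners of Srf, the genes called higher were Mrtfa and Mrtfb. Of 6 genes, 5 were tested, and 1 was higher in EA1, 2 in EA2 and 2 in EA3, beside 19%, 13% and 17.5% of all genes, while none was lower in edgeR (unadjusted 0, 0 and 1; DESeq2 0, 0 and 1). In EA1 the share of higher genes was near that of all genes. Myocd, myocardin, had 0 counts in EA1 and EA2 in both treatments and a mean of 0.02 CPM in EA3 with DMSO. Mrtfb rose in all 3 lines, by 0.59 ± 0.19, 0.59 ± 0.19 and 0.99 ± 0.20 on the log2 scale (adjusted p = 0.0304, 0.0409 and 0.0021, edgeR). Mrtfa rose by 0.41 ± 0.12 in EA2 and by 0.39 ± 0.13 in line EA3 (adjusted p = 0.0268 and 0.0294) and was at 0.08 ± 0.12 in EA1 (adjusted p = 0.632). These calls were not stable: the count in EA1, which is Mrtfb alone, went to 0 on leaving out any 1 day, and the count in EA2 went to 0 without day 1, 3 or 5. The count in EA3 went from 2 to 1 without day 1, 2 or 3, with the line fitted alone and without the day block. The TCF genes Elk3 and Elk4 had log2 fold changes of -0.32 to 0.17 and did not pass.

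Most of the listed cytoskeletal targets of Srf rose. The list held 20 cytoskeletal genes known as targets of Srf with MRTFs, and the activity of these factors was not measured. All 20 were tested, and 17 were higher in EA1, 14 in EA2 and 17 in EA3, beside 19%, 13% and 17.5% of all genes. The list was chosen with earlier results of these data known, so these counts are not independent of the choice. The median log2 fold changes were 0.93, 0.80 and 1.35. None was lower in edgeR (unadjusted 1, 0 and 0; DESeq2 1, 0 and 0). Thbs1, thrombospondin 1, rose by 4.54 ± 0.45, 3.45 ± 0.43 and 3.16 ± 0.41 on the log2 scale, and the matricellular genes Ccn1 and Ccn2 rose by 1.6 to 2.86 and by 1.59 to 1.78. Ccn2 has 23.2% of its exon bases under an opposite exon, and reads there are in neither gene's counts. Tgfb1I1, the focal adhesion protein Hic-5, rose by 2.41 ± 0.49, 3.89 ± 0.83 and 2.91 ± 0.90 to mean levels of 3.45, 0.55 and 0.30 CPM. Its libraries held at most 6 counts in EA2 and 3 in EA3, at or near the floor, against up to 49 in EA1. Tgfb1I1 could therefore reach the test only through EA1, although it is among the 14 and 17 genes called higher in EA2 and EA3. Actb, the cytoplasmic actin, rose by 0.70 ± 0.22 in EA1 and 0.71 ± 0.22 in EA3 (adjusted p = 0.0253 and 0.0239, edgeR) and had 0.39 ± 0.22 in EA2 (adjusted p = 0.226), a small change beside that of Acta2.

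A further list held 8 immediate early genes known as targets of Srf with TCFs. All 8 were tested, and 6 were lower in EA1, 6 in EA2 and 7 in EA3, beside 14.6%, 11.3% and 15.1% of all genes. The median log2 fold changes were -1.34, -2.29 and -2.08. None was higher in edgeR (unadjusted 0 in each line; DESeq2 0 in each line). Egr3, Fos and the orphan receptor gene Nr4A1 fell in every line. Their log2 fold changes, with EA1 first and EA3 last, were -3.29 ± 0.53, -4.10 ± 0.66 and -4.61 ± 0.73 for Egr3, -2.97 ± 0.37, -2.69 ± 0.45 and -3.27 ± 0.40 for Fos, and -2.23 ± 0.39, -1.88 ± 0.39 and -2.46 ± 0.41 for Nr4A1. Egr2 fell in EA2 (-4.55 ± 0.76) and EA3 (-3.84 ± 0.65) and had 0.27 ± 0.48 in EA1 (adjusted p = 0.687). Egr1 fell in EA2 (-4.19 ± 0.64, adjusted p = 0.000454, edgeR) and had -0.96 ± 0.53 in EA1 (adjusted p = 0.175) and -1.42 ± 0.53 in EA3 (adjusted p = 0.0554).

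A list that holds regulators of light chain phosphorylation and, as with Limk1, Limk2, cofilins and formins, regulators of actin filaments had few calls. Of 16 genes, all tested, 0 were higher in EA1 (unadjusted 1; DESeq2 0), 1 in EA2 and 1 in EA3, and 2, 1 and 2 were lower. Over all genes, 19%, 13% and 17.5% were higher and 14.6%, 11.3% and 15.1% lower, so that the share of lower genes was near the background. The median log2 fold changes were -0.05, 0.15 and 0.09. Ppp1R12C, a subunit of myosin phosphatase, was lower in EA1 (-0.40 ± 0.14, adjusted p = 0.0382, edgeR) and EA3 (-0.45 ± 0.14, adjusted p = 0.0225), whereas its relative Ppp1R12B, of the smooth muscle list, was higher in all 3 lines (1.59 ± 0.28, 1.07 ± 0.27 and 2.19 ± 0.27, with adjusted p-values of 0.000936, 0.0111 and 9.7e-05, edgeR). Dapk3, a kinase that can phosphorylate the light chain, was higher in EA2 (0.64 ± 0.15, adjusted p = 0.00741, edgeR). Limk1, LIM kinase 1, was lower in EA3 (-0.96 ± 0.27, adjusted p = 0.0165), whereas Limk2 was higher there (0.62 ± 0.13, adjusted p = 0.00286, edgeR). The formin gene Diaph3 was lower in EA1 (-0.68 ± 0.25, adjusted p = 0.0482, edgeR). The count of lower genes in EA1 went to 0 without day 2, 3 or 5 and with scaling by library size alone, and the count of higher genes in EA2, which is Dapk3, went to 0 without day 5. Rhob, the small GTPase gene with the largest mean change, had 0.23 to 0.64 and did not pass.

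**Figure D3:**
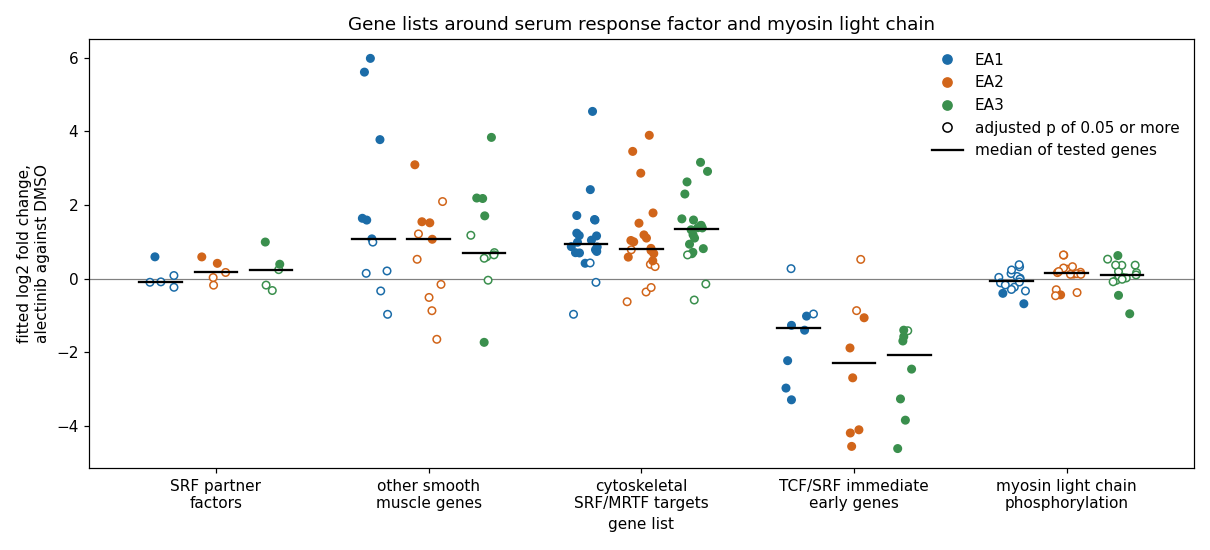
Fitted log2 fold change of alectinib against DMSO (vertical) for the tested genes of each list (horizontal), with 1 point per gene and line, filled where the adjusted p is below 0.05, and a bar at the median. The cytoskeletal targets of Srf and MRTFs lie mostly above 0, the immediate early genes mostly below 0, and the genes of the list named for myosin phosphorylation around 0.

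Across the 24 libraries, the genes whose log2 CPM was most like that of Acta2 were Msrb3 (Pearson r = 0.954), St3Gal2 (0.946) and Maoa (0.945). For Myl9 they were Slc12A7 (0.936), Igf1 (0.929) and Acta1 (0.918), and for Fhl1 they were Emc3 (0.909), Tmem106B (0.906) and Kat2B (0.903). Among the members, Acta2 had r = 0.878 with Tpm1, 0.873 with Cnn1, 0.831 with Myl9 and 0.750 with Fhl1, against 0.064 with Tpm2. These are descriptions over libraries that share lines and treatments, and Tagln was too low to be ranked.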

How the data were processed

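The deposited table holds raw counts per gene for 26 libraries. The authors checked reads with FastQC, trimmed adapters, mapped them to mm10 with STAR and took STAR's gene counts. The annotation release and strand column are not given in the sources used here. Of 55415 lines, 24 carry date numbers in place of symbols (at most 0.201% of a library) and were left out. The tools were edgeR 4.0.16 and DESeq2 1.42.0 under R 4.3.3, with TMM scaling, filterByExpr by line and treatment, and the robust quasi-likelihood test. Adjusted p-values are Benjamini-Hochberg with a threshold of 0.05. The alectinib and DMSO libraries of a line carry the same day labels and were paired by day as a block, as the design has 1 of each. Their deviations from group means correlated between -0.300 and 0.549. CPM use TMM factors, log2 CPM a prior count of 2. A floor is 3 counts, and intervals cover counting error only. Fits were tested on simulated data.

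The members and lists were chosen with earlier results of these data known. Tests of Acta2, Myl9 and Fhl1 in DMSO were planned as independent of their choice and are not reported, since the ratio they were chosen on uses those libraries. Counts under the alternatives cover the genes taken by function. The named genes are the 10 members, the 3 genes most like Acta2, Myl9 and Fhl1, up to 4 genes of each other list with the largest mean log2 fold change, Myh11, Myocd, Mrtfa, Mrtfb, Actb and Egr1, and Etv4 and Dusp6. Cald1, Smtn, Ppp1R12B, Ppp1R12C, Limk2 and the genes named among the markers were named after their values were seen. Exon overlap was taken from GENCODE vM21 and promoters from RefSeq, both on GRCm38, which is mm10. Alternatives were DESeq2, edgeR with the size factors of DESeq2 or with library size only, testing every gene, testing only genes with 10 counts or more throughout, each day left out, no day block, each line alone, all 26 libraries and a log2 change of at least 1. Those for the effect over days, the other lists and the description of Acta2, Myl9 and Fhl1 were added after seeing the data.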

Additional observations from a re-analysis of the deposited data

Results flagged for a closer look

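Within groups of 4 libraries, 1 library stood apart from the other 3 by Dixon's criterion in 11 of 59 gene and group pairs. The criterion is set to flag about 1 in 20 groups of normally distributed values. Many values here are 0 and the genes share libraries, so the 11 cannot be set against that rate. Day 5 with alectinib stood high in EA2 for Fhl1 (73.4 CPM), Cnn1 (8.99 CPM) and Actg2 (3.82 CPM), and in EA1 for Fhl1 (41.0 CPM). Among DMSO libraries, Cnn1 stood high in EA1 on day 5 (1.81 CPM) and Mylk in EA3 on day 3 (23.9 CPM). The other 5 rest on a single count: Acta2 in EA3 on day 2 (0.117 CPM), Myl9, Tagln and Cnn1 in EA3 on day 3 (0.132 CPM each) and Fhl1 in EA2 on day 1 (0.0896 CPM).

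The alectinib library labelled EA3 day 7, used only in an alternative over all 26 libraries, held more of the genes named here than any EA3 DMSO library of days 1 to 5. Acta2, Myl9 and Fhl1 were chosen on ratios to those libraries. It held 1126 CPM of Acta2, from 13286 counts against 2 in its DMSO partner, 20.8 CPM of Myl9, 44.3 CPM of Fhl1, 9.24 CPM of Cnn1, 4.24 CPM of Actg2, 3455 CPM of Tpm1, 309 CPM of Tpm2 and 0.508 CPM of Tagln. The DMSO library of that day held 147 CPM of Tpm2, against 15.6 to 37.7 CPM in the other EA3 DMSO libraries and 187 to 232 CPM in EA2. Both libraries correlated more with EA2 than with EA3, and whether they are EA3 cells was not tested.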

How the results depend on the processing

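With at least 10 counts in every library, Cnn1, Actg2 and Tpm2 could not be tested, and 1 gene, Tpm1, was higher in each of EA1, EA2 and EA3, while 0 differed between EA2 and EA1, 1 between EA3 and EA1 and 2 between EA3 and EA2 in DMSO. With each line fitted alone, Cnn1 and Actg2 could not be tested in EA2 and EA3, and 1 was higher in EA3. The effect differed between lines for 2 genes with DESeq2, for 1 without a filter (Tpm2) and for 0 to 1 on leaving out a day. In DMSO, 4 genes differed between EA2 and EA1 with DESeq2 and 5 between EA3 and EA1 without a filter. Between EA3 and EA2, 1 differed with a log2 difference of at least 1, 1 to 3 on leaving out a day, and 1 without the replicate block of days. Among the tested members, dropping the pairing by day otherwise changed only the calls named in the report and that of Mylk between EA3 and EA1 (adjusted p = 0.0470 without it, edgeR). Srf in EA2, at 0.01, turned negative with all 26 libraries (-0.021), at least 10 counts (-0.022), DESeq2 size factors or DESeq2 (-0.011 each), the line fitted alone (-0.0032), library size alone (-0.040) and without day 2 (-0.011) or 5 (-0.18), with a range of -0.18 to 0.16 on leaving out a day. Mylk between EA3 and EA2 turned positive without day 1 (0.079) or 2 (0.041), and ranged from -0.74 without day 3 to 0.079. Without day 3, on which the EA3 DMSO library stood apart, Mylk passed between EA3 and EA2 (adjusted p = 0.0154), EA3 and EA1 (-1.80, adjusted p = 0.000144) and EA2 and EA1 (adjusted p = 0.00196), edgeR. None of the 10 values of reversed sign passed the threshold. Of the counts over the other lists, 69 moved by over 1.5 times and 291 did not. Library size alone moved the median of all genes in EA3 from 0.067 to 0.18. Acta2 in EA3 went from 8.02 to 11.2 with the libraries labelled day 7. Fewer than 10 counts in most DMSO libraries limit the folds of Acta2 in EA3 and of Myl9, Fhl1, Cnn1 and Actg2.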
